A study of Homo sapiens with 8 samples.

Results

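Reporter activity was measured in HepG2, a human hepatocellular carcinoma cell line, as the RNA made from each reporter plasmid relative to the DNA of that plasmid in the same cells. The members are 4 of the 8 libraries of the series, those labelled HepG2: 2 RNA libraries and 2 DNA libraries, paired by replicate number. The labels give the number only, and the 2 numbers are read here as 2 independent transfections. The other 4 are the same libraries from K562 cells and entered no result below except where named. HepG2 cells were grown by the ENCODE protocols and transfected with the plasmid pool using FUGENE reagent, with no further treatment or genotype in the labels. The plasmids were transfected rather than inserted in the genome, so activity here is that of a short element on a plasmid next to a luciferase gene. The RNA read was the barcoded end of the luciferase transcript. These libraries hold reporter barcodes and no endogenous transcript, so the HepG2 label could not be checked against liver markers.

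CEBPB is a basic leucine zipper transcription factor that binds DNA as a dimer and takes part in acute-phase, metabolic and differentiation programmes of the liver. Many sites that a factor occupies in chromatin drive no reporter transcription. RNA polymerase II is found at active enhancers as well as at promoters, and the series title asks whether the polymerase away from promoters separates active from inactive CEBPB sites. The pool held 1730 bound sites and 1365 scrambled controls, which carry the name of a bound site with its sequence shuffled. Each element was tagged with 4 barcodes. The sites fall into 6 categories, bound in HepG2, in K562 or in both (called shared), each with or without the polymerase. The labels do not say in which line the polymerase was found. With the minimum of 10 DNA reads per barcode and 3 barcodes per element, 1297 bound sites and 1050 scrambled controls could be tested, on 8935 barcodes. The minimum passed 81.0% of bound sites with polymerase and 68.6% of those without. By category it passed from 60.6% of K562-bound sites without polymerase to 88.2% of HepG2-bound sites with it, so category shares compare unequally filtered sets.

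A barcode is 9 bases long, and the agreement of barcodes that tag the same element carries much of what follows, so 3 sites are shown with theirs. Capitals mark the barcode as deposited. The shared site with polymerase at chr6:36634962 had the highest activity of all elements, and its barcodes stood at a log2 RNA/DNA of 6.54, 6.70, 5.84 and 6.18 in the order listed (mean of 2 transfections).
chr6:36634962 barcode 1: AAGCACCGT
chr6:36634962 barcode 2: CTACAGCAA
chr6:36634962 barcode 3: GGCCGATTG
chr6:36634962 barcode 4: TAGCTGCAA
At the HepG2-bound site with polymerase chr6:132165459 the barcodes disagreed, at -0.54, 5.54, 0.24 and 0.98. The barcode listed second stood far above the other 3.
chr6:132165459 barcode 1: CCGTCTGTA
chr6:132165459 barcode 2: CGAACATAT
chr6:132165459 barcode 3: CGGATCTTT
chr6:132165459 barcode 4: GATCCTTGT
The HepG2-bound site without polymerase chr6:89850041 had 3 barcodes that passed, at 0.11, 5.18 and -0.48, again with a single high one.
chr6:89850041 barcode 1: CAATCTGCT
chr6:89850041 barcode 2: CCACGTTAT
chr6:89850041 barcode 3: GTAGTTGAT

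The HepG2 libraries were of like depth, with 10134385 and 10134252 DNA reads and 10193122 and 10186483 RNA reads. Libraries were scaled on the scrambled controls, which puts the typical scrambled sequence at a log2 RNA/DNA near 0, and a value of 1 is a doubling over it. The amplified reads carry no molecular identifiers, so precision was taken from the transfections and not from read counts. For barcodes with at least 100 reads, the median squared difference between the RNA libraries was 25.2 times what counting alone gives, and that between the DNA libraries 4.13 times. The RNA library of transfection 1 stood apart from the other 3 in how its reads spread over barcodes by their bases, described near the end. Counts without each transfection are therefore given beside the main ones where they moved by over 1.5 times. With 1 transfection left, the spread was pooled with the K562 libraries, which assumes that the remaining HepG2 libraries vary like those.

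In HepG2, 294 of the 1297 bound sites (22.7%) were active and 29 (2.24%) were repressed. Over all tested elements, bound and scrambled, 14.7% were called active and 2.85% repressed. Active means an adjusted p under 0.05 in edgeR's quasi-likelihood test and a log2 RNA/DNA above 0.67, a value that 95% of tested scrambles do not exceed and that equals a 1.60-fold excess. Repressed is the mirror call below -0.44, the 5th percentile of scrambles. Of the scrambled controls 50 (4.76%) were active and 38 (3.62%) repressed. Both percentiles come from these same scrambles, so at most 5% of them could be called in each direction. Their shares, here and by category below, are thus set largely by the rule and are no measured rate of false calls. Without transfection 1 there were 223 active bound sites and 30 active scrambles, and without transfection 2 there were 226 and 28. The percentile did most of the narrowing: the edgeR test alone placed 467 bound sites and 151 scrambles above 0, and 84 and 97 below it. Only 13 bound sites lay above the percentile without passing the test. The last site inside the active call was chr21:34588027, at a fitted log2 of 0.674 (edgeR adjusted p = 0.0491), and the first outside was chr11:118065993, at 0.671 (edgeR adjusted p = 0.00124).

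Activity repeated from one transfection to the other. The mean of bound sites was 0.42 in transfection 1 and 0.43 in transfection 2, and that of scrambles 0.04 and 0.04. The difference was 0.38 and 0.39. Medians lay closer, at 0.18 and 0.17 for bound sites against 0.0068 and -0.0028 for scrambles. Over all tested bound sites the transfections correlated at a Pearson of 0.94 (Spearman 0.81), and over scrambles at 0.68 (Spearman 0.60). Of the 294 active sites, 258 exceeded the percentile in each transfection on its own. Those sites were called from the same transfections, so that count is no separate check. A comparison of 2 RNA with 2 DNA libraries by exact permutation cannot go below a two-sided p of 0.333, so differences between sets of sites are given in each transfection and carry no p.

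**Figure D1:**
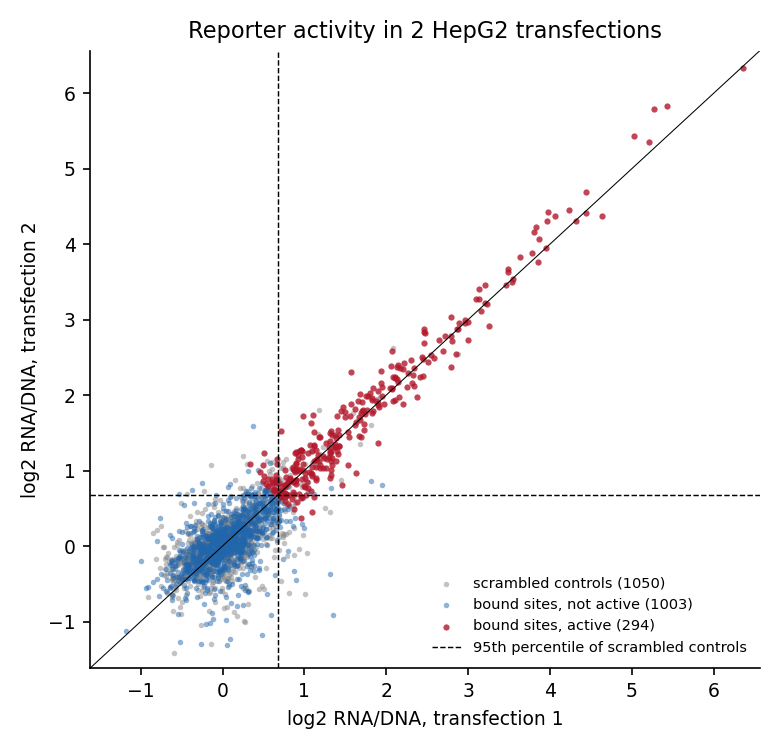
Log2 RNA/DNA of each tested element in transfection 1 (x axis) and transfection 2 (y axis), with bound sites called active in red, other bound sites in blue and scrambled controls in grey. Dashed lines mark the 95th percentile of scrambled controls, 0.67, and the solid line equality. Active sites run along the line of equality up to 6.35, while scrambles gather around 0.

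A small number of sites made a large part of the reporter RNA. The 294 active sites held 13.0% and 13.2% of the DNA reads and 40.1% and 41.4% of the RNA reads. The 10 with the highest activity went from 0.389% and 0.402% of DNA to 9.70% and 10.2% of RNA, and the first 100 from 4.37% and 4.43% to 27.2% and 28.5%. Bound sites that were not active fell from 40.0% and 40.1% of DNA to 27.5% and 27.4% of RNA in share, and scrambles from 45.0% and 45.3% to 30.4% and 30.0%. Shares sum to a fixed total, so a smaller share of these elements accompanies the larger share of the active ones.

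**Figure D2:**
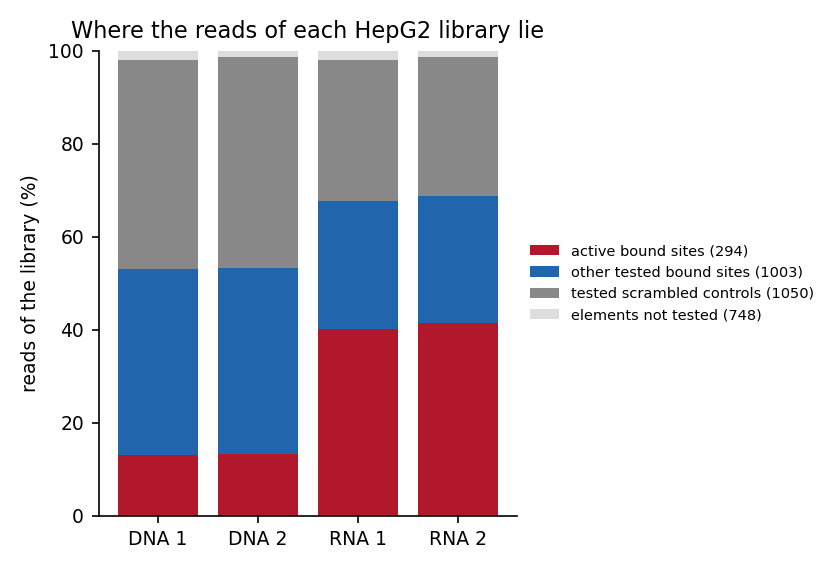
Stacked bars of the percentage of reads (y axis) in each of the 4 HepG2 libraries that came from active bound sites, other tested bound sites, scrambled controls and elements not tested. Active sites rise from 13.0% and 13.2% in DNA to 40.1% and 41.4% in RNA, and both libraries of a kind look alike.

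Shared sites with polymerase had the highest share of active sites and the highest mean of the 6 categories. Of 150 tested, 56 (37.3%) were active, and the median active site stood at a log2 of 1.97. Their mean was 0.91 and 0.94 in transfections 1 and 2 and their median 0.40 and 0.49. The 90th percentile was 2.79 in both transfections. Of the active ones 26 exceeded a log2 of 2 and 11 a log2 of 3. Their own scrambles had a mean of 0.05 and 0.01 and were active in 4 of 102 cases (3.92%).

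The highest member of that category, chr6:36634962, had 9310 and 9973 DNA reads and 502256 and 511121 RNA reads. It alone took 4.93% and 5.02% of the RNA libraries against 0.0919% and 0.0984% of the DNA libraries. Its log2 RNA/DNA was 6.36 and 6.33 (fitted 6.35 with an SE of 0.09, an 81.4-fold excess, edgeR adjusted p = 1.02e-07). Both RNA libraries were far above both DNA libraries, with no overlap. The second, chr10:80218871, was at 5.21 and 5.35, and its 4 barcodes lay between 4.91 and 5.48. The third, chr1:160983700, was at 5.03 and 5.43 with barcodes from 4.70 to 5.62. For each of the 3, leaving out the highest barcode moved the fitted value by less than 0.1 with libraries scaled anew, to 6.31, 5.33 and 5.31. The site nearest the category median, chr20:30198640, stood at 0.62 and 0.37. It passed the edgeR test (adjusted p = 0.00349) at a fitted 0.49 but not the percentile, so it was not called. With the highest barcode of every element left out, it was called at 0.58. In that setting libraries were scaled anew and the percentile fell to 0.53, and 0.58 is below the 0.67 of the main call. The fitted value rose although the barcode left out at this site, at 0.64, was its highest.

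Sites bound in HepG2 with polymerase were the largest active group in number. Of 380 tested, 119 (31.3%) were active, with a median active log2 of 1.40. The mean over the category was 0.59 and 0.61, the median 0.25 and 0.25, and the 90th percentile 2.05 and 2.10. Of the active sites 41 exceeded a log2 of 2. Scrambles of the category were active in 14 of 297 cases (4.71%), with a mean of 0.03 and 0.03.

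In this category chr17:74547258 led, at 5.27 and 5.79, from 873 and 787 DNA reads and 22155 and 27678 RNA reads. Its 4 barcodes ranged from 5.27 to 5.68, and the edgeR adjusted p was 3.68e-07. It was followed by chr6:6748911, at 4.44 and 4.41, and chr6:64275530, at 4.31 and 4.30. In these, the barcodes ranged from 4.04 to 4.69 and from 4.01 to 4.52. The site nearest the category median, chr17:79953014, was at 0.34 and 0.14 with barcodes from -0.65 to 0.56 (fitted 0.24, edgeR adjusted p = 0.0617).

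Of 299 HepG2-bound sites without polymerase, 47 (15.7%) were active with a median active log2 of 1.13, and 8 exceeded a log2 of 2. The count was 28 without transfection 1 and 29 without transfection 2. The category mean was 0.24 and 0.23 and the median 0.12 and 0.11. Its scrambles had the highest active share of any scrambled set, 16 of 259 (6.18%), with a mean of 0.05 and 0.08. The site with the highest fitted value, chr6:89850041, at 4.43 and 4.69, is the one whose barcodes disagreed above. Without its highest barcode it fell to 0.02 (edgeR adjusted p = 0.978). Next came chr16:22308680, at 3.96 and 4.31, with 4 barcodes between 3.96 and 4.31. Its own scramble was active too, with barcodes from 0.92 to 1.32 and a mean of 1.20, and the site exceeded it by 2.94 with an SE of 0.15 (edgeR adjusted p = 1.1e-07 over pairs). The third, chr20:52417504, stood at 2.70 and 2.58. The site nearest the median, chr10:133996671, was at 0.10 and 0.05 and did not pass (edgeR adjusted p = 0.477).

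Shared sites without polymerase were active in 25 of 117 cases (21.4%), mostly at low values. Their median active log2 was 1.02, and 1 site exceeded a log2 of 2, against 26 of the shared sites with polymerase. The count of active sites was 16 without transfection 1 and 14 without transfection 2. The category mean was 0.28 and 0.26 and the median 0.15 and 0.12. The strong one was chr12:122851539, at 2.46 and 2.70, with barcodes from 2.16 to 2.81 (edgeR adjusted p = 1.09e-06). After it came chr22:24107550, at 1.68 and 1.66, and chr10:46962660, at 1.61 and 1.60. The site nearest the median, chr7:3604003, was at 0.04 and 0.22 and did not pass (edgeR adjusted p = 0.308). Scrambles of this category were active in 4 of 88 cases (4.55%).

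Sites that CEBPB binds in K562 were also read in HepG2. With polymerase 28 of 188 (14.9%) were active, and without it 19 of 163 (11.7%), beside the 15.7% of HepG2-bound sites without polymerase. For those without polymerase the count was 11 without transfection 1 and 12 without transfection 2. Category means were 0.25 and 0.29 with the polymerase and 0.23 and 0.22 without. Their scrambles were active in 4 of 166 (2.41%) and 8 of 138 cases (5.80%). A few were among the most active elements in the pool. The K562-bound site with polymerase chr10:9867491 reached 5.42 and 5.83 from 617 and 536 DNA reads, with 3 barcodes between 5.22 and 6.04 (edgeR adjusted p = 1.97e-07). It was followed by chr10:103489821, at 3.78 and 3.88, and chr3:5036755, at 3.46 and 3.46. Among K562-bound sites without polymerase, chr22:30601908 reached 3.0 and 2.96 and chr18:20047973 reached 2.47 and 2.82. The third by rank, chr8:17207536, was at 2.37 and 1.98 on barcodes from -1.64 to 3.20, and without the highest it stood at -0.72 (edgeR adjusted p = 0.359). The sites nearest the medians, chr3:72213060 and chr1:23490035, changed sign between transfections, at -0.18 and 0.33 and at 0.45 and -0.32.

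Between sites with and without polymerase the upper tail differed more than the typical site. In HepG2-bound sites the mean with polymerase exceeded that without by 0.34 and 0.37 (0.36 ± 0.02, SD, n = 2 transfections), the median by 0.14 and 0.14, and the 90th percentile by 1.03 and 1.17. In shared sites the mean differed by 0.63 and 0.68 (0.65 ± 0.04, SD, n = 2), the median by 0.25 and 0.37, and the 90th percentile by 1.81 and 1.70. Each of these differences was larger than its spread between transfections. In K562-bound sites the mean differed by 0.02 and 0.06 (0.04 ± 0.03, SD, n = 2), the median by -0.029 and -0.0011 and the 90th percentile by -0.07 and 0.17, each of the size of its spread. That mean difference was 0.0771 with no minimum count and 0.11 with the median over barcodes, still below the values of the other binding groups. The same contrast in scrambled controls gave -0.02 and -0.05 for HepG2-bound, 0.01 and 0.01 for shared and -0.11 and -0.03 for K562-bound names. Because the line of the polymerase is not given, the label of a K562-bound site need not describe that site in HepG2.

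Counted over all binding groups, in whichever line the polymerase was found, 203 of 718 sites with polymerase (28.3%) and 91 of 579 without (15.7%) were active. Above a log2 of 3 there were 31 and 2, and above a log2 of 4 there were 12 and 2. The counts above 4 include chr6:132165459 with polymerase and chr6:89850041 without, whose barcodes disagreed. Without the highest barcode these fell to 0.45 and 0.02. Of the 50 most active sites, 45 carried the polymerase label, while 55.4% of all tested bound sites did. Shared sites with polymerase supplied 18 of those 50 and HepG2-bound sites with polymerase 22. Among sites with polymerase, the HepG2-bound mean exceeded the K562-bound by 0.33 and 0.32, and the shared mean exceeded the HepG2-bound by 0.32 and 0.34. Without polymerase the HepG2-bound mean exceeded the K562-bound by 0.02 and 0.01, and the shared mean exceeded the HepG2-bound by 0.04 and 0.03. By line of binding, means thus lay apart among sites with polymerase and close together among those without.

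**Figure D3:**
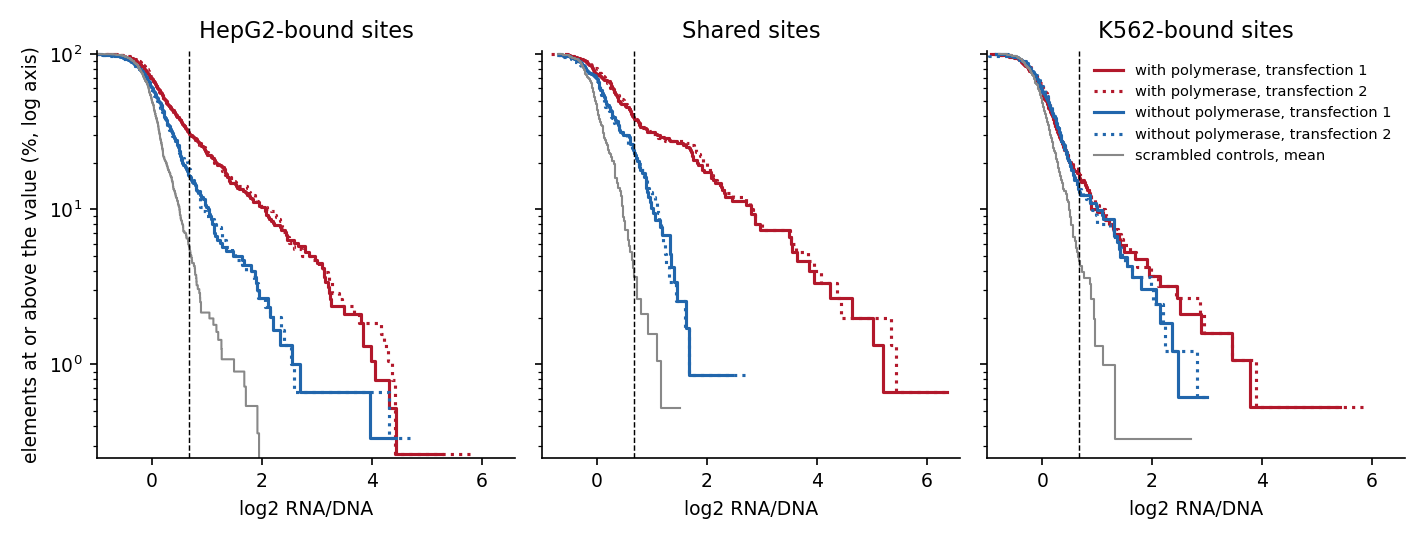
Percentage of elements (y axis, log scale) at or above each log2 RNA/DNA (x axis) for HepG2-bound, shared and K562-bound sites, with polymerase in red and without in blue, transfection 1 solid and transfection 2 dotted, and the scrambled controls of the same names in grey. The dashed line is the 95th percentile of scrambled controls, 0.67. Red and blue part in the first and second panels and stay close in the third, and the curves of both transfections nearly coincide.

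Sites with polymerase also had more plasmid DNA, with a median of 3632 reads per library against 2675. So had the scrambled controls of their names, at 3885 against 2572.5, so the gap was not particular to the bound sequences. All tested elements were split by DNA reads into 3 groups of like number, of up to 1882 reads, 1887 to 4935 reads and more. In the deepest group 45 of 143 HepG2-bound sites with polymerase were active (31.5%) and 16 of 83 without it (19.3%). In the middle group the shares were 32.2% and 14.3%, and in the shallowest 28 of 94 (29.8%) and 16 of 111 (14.4%). Of shared sites in the deepest group, 31 of 68 with polymerase (45.6%) and 6 of 34 without (17.6%) were active, in the middle group 34.1% and 21.4%, and in the shallowest 10 of 38 (26.3%) and 10 of 41 (24.4%). Mean log2 RNA/DNA of shared sites in the shallowest group was 0.69 with polymerase and 0.34 without, a gap that the active shares there do not show. The part of depth in these shares was not tested.

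**Figure D4:**
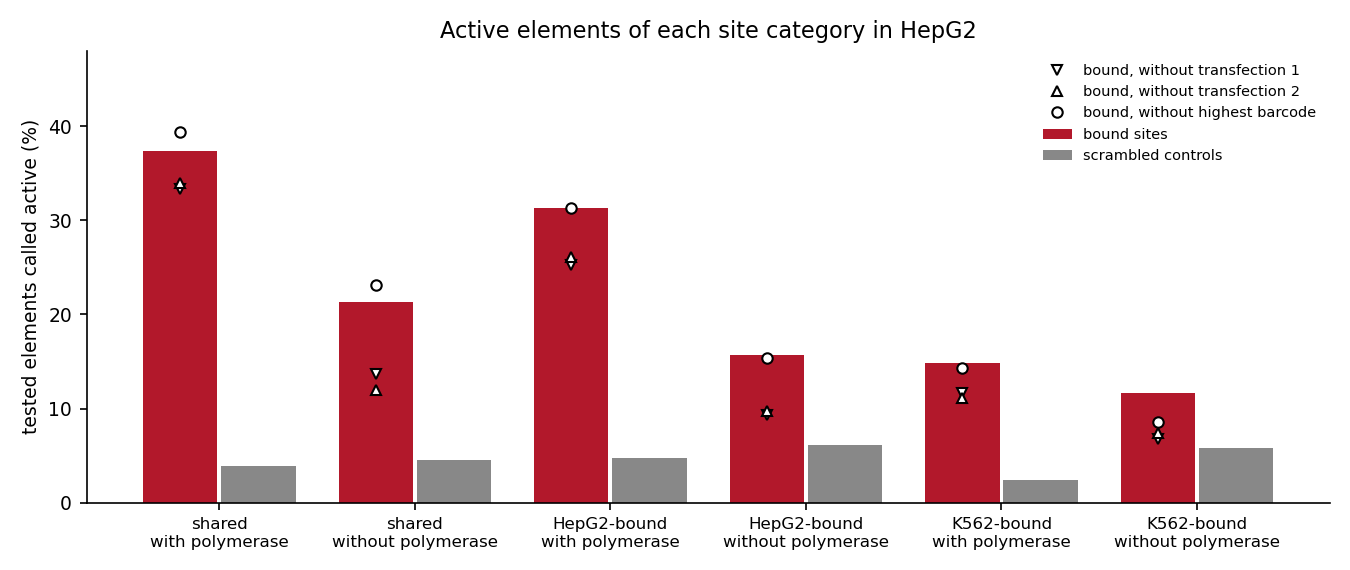
Percentage of tested elements called active (y axis) in each category, bound sites in red and their scrambled controls in grey, with open symbols for bound sites when a transfection or each element's highest barcode is left out. Shared sites with polymerase stand highest at 37.3% and K562-bound sites without polymerase lowest at 11.7%, and all scrambled sets lie between 2.41% and 6.18%. Over all scrambled controls the percentile caps the active share at 5%.

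Each bound site was also set against its own scramble, which asks what the order of its bases adds. Of 907 pairs in which both could be tested, 290 (32%) had the site higher and 96 (10.6%) lower (edgeR, adjusted over pairs). These calls rest on the adjusted p alone, with no percentile. For RNA against DNA, that rule alone placed 151 of 1050 scrambles above 0 and 97 below. A site and its scramble also carry different barcodes, and the test does not cover the spread between barcodes. The part of barcodes in the pair calls was not tested. The site was higher by more than a log2 of 1 in 148 pairs and lower by more than 1 in 18. In 184 of the higher pairs and 22 of the lower ones no barcode of the site overlapped a barcode of its scramble. Overlap was counted only within called pairs, which the same reads select, and not over all 907. By category the share of higher sites was 53.1% of shared sites with polymerase, 40.3% of HepG2-bound sites with polymerase, 29.3% of shared sites without, 26.2% of K562-bound sites with, 23.4% of HepG2-bound sites without and 19.3% of K562-bound sites without. Without transfection 1 there were 171 higher and 25 lower pairs, without transfection 2 there were 179 and 32, and with each element's highest barcode left out 245 and 48. Lower sites made up between 8.16% and 14.4% of a category, the latter in HepG2-bound sites without polymerase.

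Of 194 active sites with a tested scramble, 179 were higher than it and 8 had a scramble that was active as well. The active call and the pair test use the same reads of the site. The 179 therefore follow largely from the call and are no separate check on it. The activity of a site and of its scramble were nearly unrelated across the 907 pairs, with a Pearson correlation of 0.03 over elements that share libraries. The largest difference was at chr10:9867491, 5.62 with an SE of 0.19, where the scramble stood at -0.05 and 0.07 against 5.42 and 5.83 for the site. Next was chr1:160983700, at 5.59 with an SE of 0.18. In the most negative pairs the scramble was active and the site was not. At chr20:22504870 the site was at 0.05 and -0.16 and its scramble at 2.08 and 2.62 (difference -2.37, edgeR adjusted p = 5.16e-05), but that scramble rested on 1 of 3 barcodes and fell to -0.92 without it. At chr16:87561818 the site was at -0.48 and -0.07 and its scramble at 1.82 and 1.60 (difference -1.97, edgeR adjusted p = 9.8e-06), and the scramble kept 1.48 without its highest barcode.

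Among scrambled controls the highest value belonged to the scramble of chr6:7168564, at 2.88 and 2.54, with barcodes from -0.16 to 3.49 and 0.46 left without the highest. That of chr20:22504870 came second. The third, of chr1:225133826, was at 1.92 and 1.97 with barcodes from 0.62 to 2.88, and held 1.46 without its highest barcode.

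The 29 repressed bound sites were 2.24% of those tested, beside 2.85% of all tested elements and 3.62% of scrambled controls, so the share of bound sites was not above that background. The percentile caps the share of scrambles at 5%. They ranged from -1.15 to -0.44 and were spread over the categories, with 8 HepG2-bound sites without polymerase, 6 K562-bound sites with polymerase and 3 or 4 in each other category. The lowest, chr12:120619850, had 687 and 734 DNA reads and 198 and 214 RNA reads and stood at -1.18 and -1.12 (edgeR adjusted p = 0.00559), with 3 barcodes between -1.38 and -0.70. It kept its value but not its call without transfection 1 (-1.14, edgeR adjusted p = 0.123) and without transfection 2 (-1.19, edgeR adjusted p = 0.114). It was below its own scramble by 1.01 with an SE of 0.20 (edgeR adjusted p = 0.00207). The next, chr1:223976821 at -0.94 and -0.56 and chr16:87989074 at -0.91 and -0.54, passed narrowly (edgeR adjusted p = 0.039 and 0.0461). Neither was called without its highest barcode, at -0.84 and -0.64 (edgeR adjusted p = 0.0535 and 0.213). Without transfection 1, 6 bound sites were repressed, 3 of them among the 29. Without transfection 2 there were 10, with 7 among the 29, and with each element's highest barcode left out 14, with 12 among the 29.

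Of the 294 active sites, 167 (56.8%) had all their barcodes above the percentile. The share was 78.6% of active shared sites, 65.5% of active HepG2-bound sites and 46.4% of active K562-bound sites with polymerase. Without polymerase it was 36.0%, 36.2% and 31.6%. A share above a fixed value moves with the level of the sites and does not measure how closely barcodes agree. Of the 50 active scrambles 5 (10%) had all barcodes above it. When the highest barcode of every element was left out, and the percentile taken anew at 0.53, 240 of the 294 sites were still called, against 21 of the 50 scrambles. That setting called 292 bound sites and 41 scrambles in all, so calls were gained as well as lost.

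**Figure D5:**
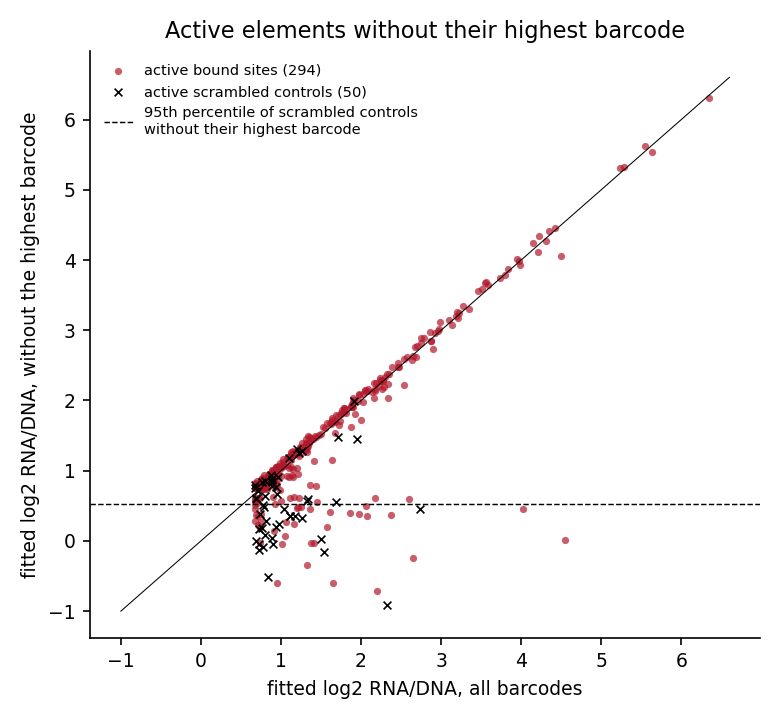
Fitted log2 RNA/DNA with all barcodes (x axis) and without each element's highest barcode (y axis) for the 294 active bound sites (red) and the 50 active scrambled controls (crosses). The solid line is equality and the dashed line the 95th percentile of scrambles without their highest barcode, 0.53. Most sites lie on the line of equality, and a scatter of sites and scrambles drops to near 0, the farthest being the site that falls from 4.55 to 0.02.

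In 21 elements, 16 bound sites and 5 scrambles, 1 barcode stood more than 2 on the log2 scale above all the others in both transfections. The reverse, a barcode more than 2 below all others, occurred in 2 bound sites and 1 scramble. Of these 21 elements 14 sites and 4 scrambles were called active, and none of them kept the call without that barcode. Gaps ranged from 2.02 to 4.93. The high barcodes had a median of 145 DNA reads, against 796 over all tested barcodes. None lay within 1 mismatch of a barcode of an element above a log2 of 3, the nearest differing at 2 to 4 of the 9 bases. The same was true of the highest barcode in all 2295 other elements checked. This comparison therefore does not set the 21 apart, and the origin of their high barcodes was not tested. The sites chr6:89850041 and chr6:132165459 shown above are among them. The latter had a fitted log2 of 4.03 with all barcodes and 0.45 without the highest (edgeR adjusted p = 0.0935). Its high barcode was read 325 and 279 times in DNA and 8682 and 9447 times in RNA, so the excess was present in each transfection.

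Over bound sites, the SD of log2 RNA/DNA was 0.83 between elements, 0.45 between barcodes of an element in a manner that repeated across transfections, and 0.48 in the remainder. In scrambled controls the same parts were 0.20, 0.36 and 0.52. Differences between elements were thus 61.2% of the variance of single bound-site barcodes and 8.89% of that of scrambles. The repeatable barcode part was 0.67 in active bound sites and 0.36 in bound sites that were not called. The SD of the difference between transfections of a barcode of a bound site was 1.09 with 11 to 444 DNA reads per library, 0.42 with 445 to 1285 and 0.33 with more, groups that each hold 1 in 3 of the tested barcodes.

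The bases of the barcode moved with the values of transfection 1. In scrambled controls, barcodes that start with G held 28.6% and 28.2% of the DNA reads, 22.6% of the RNA reads of transfection 1 and 27.5% of those of transfection 2. Barcodes that start with A held 20.4% and 21.9% of DNA reads, 24.97% of RNA reads in transfection 1 and 22.2% in transfection 2. The RNA library of transfection 1 is the one that stands apart. Relative to the mean of their element, A exceeded G as first base by 0.45 in transfection 1 and 0.05 in transfection 2. The bases at the 9 positions accounted for 19.0% of the spread of barcodes within scrambles in transfection 1 and 1.57% in transfection 2. The same coefficients accounted for 19.3% and 1.10% in bound sites, which were not used to fit them. At chr6:36634962 the barcode that starts with G was at 5.65 in transfection 1 and 6.02 in transfection 2, and the one that starts with A at 6.65 and 6.44. An alternative chosen after seeing this took the base effect out of each barcode, and it was run on the median over barcodes with limma instead of summed reads. It is therefore set beside the same limma fit on medians with the bases left in. Active bound sites numbered 340 with the bases left in and 300 with them taken out, active scrambles 51 and 35, and repressed bound sites 35 and 8. Active K562-bound sites without polymerase numbered 24 and 12. The difference in mean with minus without polymerase was 0.39 and 0.40 in HepG2-bound sites, 0.67 and 0.67 in shared sites and 0.11 and 0.10 in K562-bound sites.

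Across chromosomes the share of active bound sites ran from 5 of 45 (11.1%) on chromosome 5 to 13 of 32 (40.6%) on chromosome 22, against 22.7% over all. These counts are small and carry no test.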

How the data were processed

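Values are the authors' raw counts of reads for every barcode in every library, per the file headers. The submitters' processing notes name cutadapt, without a version, and hg19. How reads were assigned to barcodes: not given in the sources used here. The table names a site by 1 position, with no build of its own, and by a category it does not define; positions are printed as given and categories read after the series title. The annotation at hand is of another build, so no gene was assigned, and element sequences were not used here.

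Barcodes with at least 10 reads in both HepG2 DNA libraries were kept. An element entered the test with 3 or more of them, with no filter on RNA. Summed counts were scaled by TMM over scrambled controls (factors 1.26 and 1.24 for DNA, 0.820 and 0.783 for RNA). RNA was tested against DNA in the 4 HepG2 libraries with edgeR 4.0.16 (R 4.3.3) quasi-likelihood, no block, 2 residual degrees of freedom before moderation, and Benjamini-Hochberg adjustment over 2347 elements. Pairs of site and scramble were tested as an interaction. Per-transfection values use a pseudocount of 1; fitted SEs do not cover the spread between barcodes. Alternatives used DESeq2 1.42.0 and limma 3.58.1. The fits were tested on simulated counts of whole elements without spread between barcodes, so that trial does not cover such spread.

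DNA and RNA were paired by the replicate number in the labels, which was read as the same transfection. Their deviations from the group means correlated at 0.32 over elements. Within each category, the 3 highest active sites and the site nearest the median are named, plus the 3 highest active scrambles, the 3 lowest repressed sites, the 2 highest and 2 lowest pairs, and the 3 active sites that fell most without their highest barcode. The categories, lists and this rule were chosen with earlier results of these data known.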

Additional observations from a re-analysis of the deposited data

Results flagged for a closer look

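The mean log2 RNA/DNA with minus without polymerase was above 0 in bound sites and below 0 in the scrambled controls of the same names in both transfections, for HepG2-bound sites (0.36 on average, against -0.04 in scrambles) and for K562-bound sites (0.044 against -0.07). The difference between bound sites and scrambles in this contrast was not tested, and the K562-bound values are of the size of the spread between transfections.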

How the results depend on the processing

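The limits are 2 transfections, 3 or 4 barcodes per element and barcode reads without molecular identifiers. With the replicate block, which pairs DNA and RNA by transfection, 296 bound sites were active, 31 repressed and 286 pairs higher, and no named site changed its call. The shift of all elements with TMM over all of them, from a median of 0.07 to -0.01, moved no count by over 1.5 times. A cutoff at the 99th and 1st percentile left 161 active and 7 repressed bound sites and 11 active scrambles, with 70 active HepG2-bound sites with and 16 without polymerase, 5 shared sites without and 15 K562-bound sites with. Leaving out a transfection, with the spread pooled with the K562 libraries, gave 223 to 226 active bound sites, 28 to 30 active scrambles, 6 to 10 repressed sites, 28 to 29, 14 to 16 and 11 to 12 active HepG2-bound, shared and K562-bound sites without polymerase, 171 to 179 higher and 25 to 32 lower pairs, and mean differences of 0.38 to 0.39 between bound and scrambled and 0.34 to 0.37, 0.63 to 0.68 and 0.02 to 0.06 with minus without polymerase in HepG2-bound, shared and K562-bound sites. Repressed bound sites numbered 19 with no minimum count and 14 without the highest barcode. In limma on barcode medians they numbered 35, and 8 with barcode bases also taken out, and active K562-bound sites without polymerase 24 and 12. Lower pairs numbered 48 without the highest barcode.

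Mean differences moved by more than their spread between transfections in these cases. Bound minus scrambled was 0.32 with no minimum count, 0.41 with at least 50 reads, and 0.38 both with the highest barcode left out and with barcode medians. With minus without polymerase was 0.33, 0.53 and 0.0771 with no minimum count in HepG2-bound, shared and K562-bound sites. Without the highest barcode it was 0.40 in HepG2-bound and 0.10 in K562-bound sites, and with the median over barcodes 0.39 and 0.11, which taking the bases out of those medians as well left at 0.40 and 0.10. With at least 50 reads it was 0.0831 in K562-bound sites. The sign changed for chr8:17207536, to -0.72 with the highest barcode left out, -0.49 with barcode medians and -0.46 with medians after the bases were taken out, and for the scramble of chr20:22504870, to -0.92 without the highest barcode. The causes were not tested.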
